A study of Mus musculus with 47 samples.

Results

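The corpus callosum, the main white matter tract between the hemispheres, was compared with the cerebral cortex in naive mice. The comparison used 7 of the 47 libraries of a cuprizone study: 3 of corpus callosum and 4 of cortex, all from untreated wild-type C57BL/6 mice aged 8 months. The callosal libraries came from females (replicates 1 and 2) and a male (replicate 3), and the cortical ones from females (replicates 1 and 4) and males (replicates 2 and 3). Regions were microdissected from perfused brains and flash-frozen, and RNA was read in bulk, in which fewer cells of a type and less RNA per cell cannot be told apart. The labels name neither the libraries that share a mouse nor separate animals for the replicates, so p-values measure the spread between libraries. That spread was estimated in 1 fit over 40 libraries, cuprizone and hippocampal ones included, and not from the 7 naive ones alone. As further comparisons, 3 libraries of naive hippocampus of the same age (females in replicates 1 and 2, a male in replicate 3) and the 9 callosal and 11 cortical libraries of mice fed cuprizone for 12 weeks, with 0, 4, 8 or 12 weeks of recovery, were used. Cuprizone is a copper chelator given in the diet that kills oligodendrocytes.

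Values are log2 expression minus a centre of each gene that the corpus callosum, cortex and hippocampus share, so that a difference between regions keeps its size while the level of a gene is lost. A gene was called at a limma adjusted p below 0.05 over all 17054 genes tested. Of these, 3707 were higher in naive corpus callosum than in naive cortex (21.7%) and 3643 were lower (21.4%), 43.1% in all. A difference of at least 1 log2 unit was reached by 551 genes that were higher (3.23%) and 208 that were lower (1.22%). The first of these counts was 264 among genes with under 5% of their sequence shared with another locus (in 40-base windows, described further on), and 256 with libraries centred on housekeeping genes. The same test called 1516 genes higher in naive corpus callosum than in naive hippocampus (8.89%) and 1507 lower (8.84%), of which 1.3% of all genes were higher and 1.54% lower by at least 1 log2 unit. Without callosal replicate 1 the first count was 966, and without hippocampal replicate 1 it was 1004. The labels give 150-base paired reads for all libraries, whereas the methods of the study give 40-base reads for the cortex and 150-base paired reads, from another site, for chronic corpus callosum and hippocampus. Region and sequencing run therefore cannot be told apart in the comparison with cortex, so values against the hippocampus are given beside them. The values are normalized and hold no read totals, so the depth of single libraries was not used here.

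The labelled sex and region were checked against marker genes. Xist and the Y-linked genes Ddx3y and Eif2s3y matched the labelled sex in all 7 callosal and cortical naive libraries. Xist had 3.17, 2.78 and −5.49 in corpus callosum and 3.12, −4.94, −5.04 and 3.18 in cortex. In hippocampus the male replicate 3 lay between the sexes, with −2.03 for Xist against 2.48 and 2.49 in the females. Without that library 1268 genes were higher and 1288 lower in corpus callosum than in hippocampus. Genes of striatal projection neurons, a cell type of neither region, set libraries apart: the mean over that list was 1.20 and 0.71 in callosal replicates 1 and 2 but −0.74 in replicate 3, and 1.95, 1.68 and 1.54 in cortical replicates 1, 2 and 4 but −0.59 in replicate 3. Cortical replicate 3 also had the highest mean over the hippocampal neuron list, 0.62 against −0.88 to −0.49 in the other cortical libraries. Of the 10 housekeeping reference genes 8 were higher in corpus callosum than in cortex, with a median difference of 0.47, and limma called 0 of them against hippocampus (median 0.10; 3 were higher at an unadjusted p below 0.05). Centring each library on those 10 genes moved the median difference over all genes by −0.42, so a list with a small positive median changes sign under that scaling, and this is stated where it happens.

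Oligodendrocytes wrap axons in myelin, a compacted stack of membrane held together by a few abundant proteins and built from lipids that the cell makes for itself. White matter tracts are dense in these cells, and the cortex holds them mainly in its deep layers. Along each fibre, oligodendrocyte loops and the axon meet at paranodes, which flank the nodes of Ranvier where sodium channels cluster. The cortex holds the neuron bodies, arranged in layers that express different transcription factors and channels.

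Of the glial lists, myelin genes had the largest median difference between the regions. Of 28 structural myelin and mature oligodendrocyte genes, 24 were higher in naive corpus callosum than in naive cortex, 20 of them by at least 1 log2 unit, and none was lower. In all 24 the groups did not overlap, against 20.4% of all genes tested. The median difference over the list was 1.13, beside 0.0020 over all genes. Against naive hippocampus 27 of the 28 were higher, with a median of 1.17, and 27 with a median of 1.24 without hippocampal replicate 3.

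Mobp encodes a small basic protein of compact myelin and lies at chr9:120149707-120181484 on the plus strand (GRCm38). It had centred log2 values of 1.79, 1.17 and 0.74 in corpus callosum and −0.88, −0.41, −0.53 and −0.65 in cortex, a difference of 1.85 ± 0.20 (± standard error, limma adjusted p = 2.73e-08). Mbp, the myelin basic protein gene, had 1.83, 1.05 and 0.77 in corpus callosum against −0.73, −0.17, −0.25 and −0.69 in cortex (difference 1.67 ± 0.20, limma adjusted p = 1.69e-07). Every callosal value of both genes lay above every cortical one, and callosal replicate 1 was the highest library. Opalin, a membrane protein of mature oligodendrocytes, had 1.79, 0.90 and 0.31 in corpus callosum against −0.74, −0.34, −0.68 and −0.92 in cortex (difference 1.67 ± 0.29, limma adjusted p = 3.99e-05). Mog, the myelin oligodendrocyte glycoprotein of the outer myelin surface, had 1.55, 0.88 and 0.39 in corpus callosum against −0.92, −0.51, −0.55 and −0.64 in cortex (difference 1.59 ± 0.20, limma adjusted p = 2.79e-07). For these 4 genes the callosal libraries spread more widely than the cortical ones: SDs were 0.53 against 0.20 for Mobp, 0.55 against 0.29 for Mbp, 0.74 against 0.24 for Opalin and 0.59 against 0.18 for Mog. Over the whole list the mean was 1.26, 0.73 and 0.34 in the callosal libraries, and −0.53, −0.24, −0.24 and −0.32 in the cortical ones. Without callosal replicate 1 the list had 24 genes higher, with a median of 0.89.

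The 4 genes of the list that were not called were the protease Klk6 (0.64 ± 0.32, limma adjusted p = 0.105), the lysophospholipase Enpp2 (0.54 ± 0.43), the tight junction gene Cldn14 (0.11 ± 0.12) and the tubulin-binding Tppp (0.10 ± 0.08). Klk6 reached 1.33 in cortical replicate 3, above callosal replicates 2 and 3 (0.87 and 0.67), so its groups overlapped. Enpp2 is also expressed by the choroid plexus. Klk6, Cldn14 and Tppp were each higher in corpus callosum than in hippocampus (differences 1.62, 0.53 and 0.29).

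**Figure D1:**
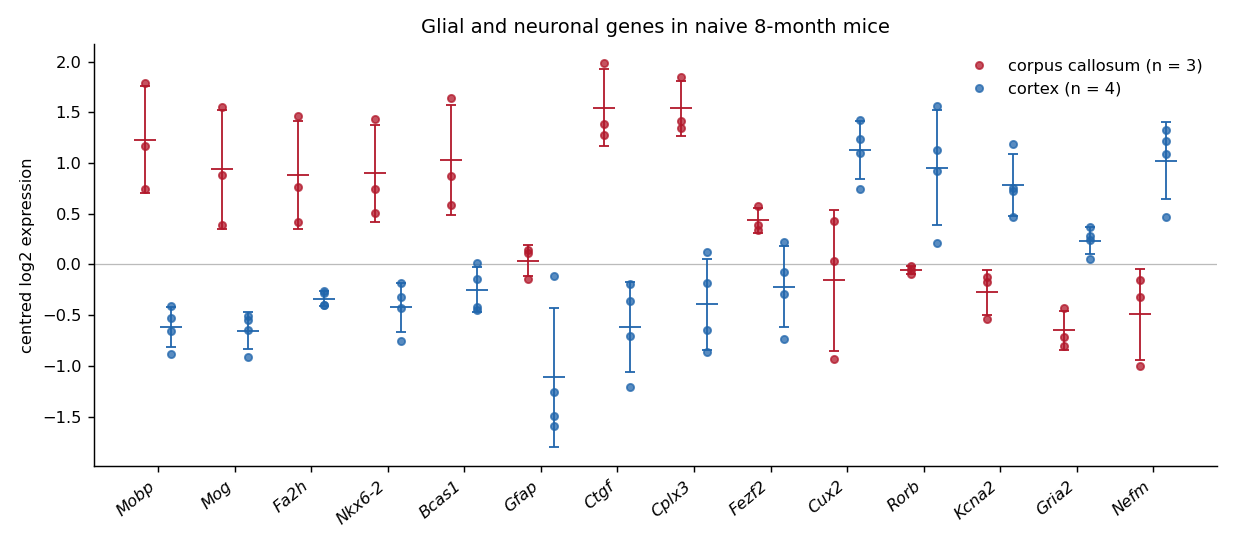
Centred log2 expression (y axis) of 14 genes (x axis) in naive mice aged 8 months: red points are the 3 callosal libraries and blue points the 4 cortical libraries, with the mean as a line and the SD as a bar. The glial genes from Mobp to Bcas1 and the deep-layer genes Ctgf, Cplx3 and Fezf2 lie higher in corpus callosum, Cux2, Rorb, Kcna2, Gria2 and Nefm lie lower, and Gfap overlaps in 1 cortical library.

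The promoters of 3 of these myelin genes are shown with matches to ACAAAG, a motif bound by the family of the lineage factor Sox10. Binding of Sox10 was not measured, and its part in the regional difference was not tested. Each run is the 250 bases before the RefSeq start in GRCm38.p6, with matches to ACAAAG on either strand (CTTTGT on the strand shown) in capitals: Mobp at chr9:120149492-120149741 (plus strand), Opalin at chr19:41077114-41077363 (minus strand) and Mog at chr17:37023399-37023648 (minus strand).
Mobp: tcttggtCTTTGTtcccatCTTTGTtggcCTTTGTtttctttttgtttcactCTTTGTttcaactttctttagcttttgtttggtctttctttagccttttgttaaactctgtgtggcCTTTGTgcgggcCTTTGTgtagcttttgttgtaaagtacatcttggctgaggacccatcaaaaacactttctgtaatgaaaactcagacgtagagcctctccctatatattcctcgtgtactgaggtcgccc
Opalin: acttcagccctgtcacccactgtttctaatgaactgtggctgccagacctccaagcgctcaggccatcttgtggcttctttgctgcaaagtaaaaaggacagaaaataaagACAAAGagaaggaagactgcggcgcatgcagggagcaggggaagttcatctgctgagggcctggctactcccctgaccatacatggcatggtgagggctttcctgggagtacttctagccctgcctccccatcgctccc
Mog: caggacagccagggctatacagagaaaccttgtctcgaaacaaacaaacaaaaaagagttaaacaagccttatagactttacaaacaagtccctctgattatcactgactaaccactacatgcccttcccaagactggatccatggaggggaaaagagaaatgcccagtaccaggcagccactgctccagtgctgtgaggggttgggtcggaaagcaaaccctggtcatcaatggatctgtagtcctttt
The Mobp window held 6 matches, the Opalin window 1 and the Mog window 0. Of the 28 listed genes 22 had a promoter in the RefSeq table, and 7 of these held ACAAAG (31.8%), against 16.5% of all 27025 promoters. The related motif ACAATG was in 5 of the 22 (22.7%) and in 11% of all. A match is a description of the letters in the window.

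Enzymes of myelin lipid synthesis followed the structural genes at smaller size. Of 17 enzymes 12 were higher in corpus callosum than in cortex and 0 were lower (median 0.53; 7 higher and 5 lower with housekeeping centring, median 0.10), and 10 were higher against hippocampus (median 0.49). Fa2h, which hydroxylates the fatty acids of myelin galactolipids, had 1.46, 0.77 and 0.42 in corpus callosum against −0.40, −0.40, −0.26 and −0.28 in cortex (difference 1.22 ± 0.21, limma adjusted p = 2.25e-05). Ugt8a, which adds galactose to ceramide, differed by 1.01 ± 0.23, the acyltransferase Agpat4 by 0.97 ± 0.12 and the glycolipid transfer protein Gltp by 0.93 ± 0.14. Galc, which degrades galactosylceramide in the lysosome, had −0.19 ± 0.08 and was not called.

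In a list of 12 oligodendrocyte transcription factors and other regulators 6 were higher in corpus callosum and 1 was lower (median 0.53), and 8 were higher against hippocampus. Nkx6-2, a homeobox factor of myelinating cells, differed by 1.32 ± 0.20, Carhsp1 by 1.17 ± 0.15 and Sox10, the lineage factor of oligodendrocytes at all stages, by 0.91 ± 0.15. Zfp536, a zinc finger gene that neurons also express, was the exception, with −0.46, −0.40 and −0.68 in corpus callosum against 0.47, 0.36, 0.53 and 0.79 in cortex (difference −1.05 ± 0.18, limma adjusted p = 2.31e-05). It did not differ from hippocampus beyond the spread (−0.00, limma adjusted p = 0.998). Tcf7l2, which marks cells starting to myelinate, had −0.36 ± 0.34 and was not called.

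On the oligodendrocyte side of the contact with the axon, 6 of 9 genes were higher in corpus callosum than in cortex and 8 of 9 against hippocampus (medians 0.66 and 0.89). Mag, the adhesion molecule of the innermost myelin layer, differed by 1.31 ± 0.18. The gap junction proteins of oligodendrocytes Gjb1 and Gjc3 differed by 1.12 ± 0.23 and 0.90 ± 0.17. Nfasc and Cntn2, which have forms on both the glial and the axonal membrane, were not called (−0.03 ± 0.13 and 0.26 ± 0.14).

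The axonal partners ran the other way. Of 17 genes of the axonal side of nodes, paranodes and juxtaparanodes 16 were lower in corpus callosum than in cortex and 0 were higher (median −0.64). In 14 of them the callosal group lay wholly below the cortical one, against 17.7% of all genes tested. Kcna2, a juxtaparanodal potassium channel, had −0.54, −0.17 and −0.12 in corpus callosum against 0.72, 0.76, 0.46 and 1.19 in cortex (difference −1.06 ± 0.17, limma adjusted p = 1.75e-05). Scn8a, the main sodium channel of mature nodes, had −0.74, −0.38 and −0.33 in corpus callosum against 0.45, 0.44, 0.35 and 0.79 in cortex (difference −0.99 ± 0.14). Kcnq3, a nodal potassium channel, differed by −1.23 ± 0.26, and its 2 female cortical libraries (0.87 and 1.39) stood above the 2 male ones (−0.08 and −0.17). The sodium channel subunit Scn4b, which striatal neurons express strongly, differed by −1.20 ± 0.41 with overlapping groups, and was not called without cortical replicate 4 or without callosal replicate 3 (−0.67). Against hippocampus only 4 of the 17 were lower and 1 was higher (median −0.19), and with a correction for transcript length and GC content 12 of the 17 were lower than in cortex (median −0.45).

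Genes of earlier stages of the lineage had calls in both directions, in shares of 40% or less beside 43.1% of all genes. Of 10 genes of newly formed oligodendrocytes 3 were higher and 1 lower, with a median of 0.03 that became −0.40 with housekeeping centring. Bcas1 had 1.64, 0.87 and 0.59 in corpus callosum against −0.45, 0.02, −0.14 and −0.42 in cortex (difference 1.28 ± 0.20, limma adjusted p = 1.05e-05), and Enpp6 differed by 1.05 ± 0.24. Gpr17, a receptor of cells leaving the progenitor stage, had 0.19 ± 0.16 and was not called. Of 14 progenitor genes 2 were higher and 2 lower, with a median of 0.02 that became −0.41 with housekeeping centring. Pdgfra, the growth factor receptor that marks progenitors, had 0.04, −0.00 and 0.11 in corpus callosum against 0.26, −0.29, −0.29 and 0.25 in cortex, a difference of 0.06 ± 0.12, and Cspg4, the NG2 proteoglycan, had −0.10 ± 0.15. Tnr, a matrix protein made by oligodendrocyte lineage cells and some neurons, was lower by −1.15 ± 0.27, with cortical values of 0.87 and 1.08 in females and −0.38 and −0.26 in males. Sox5 was also lower (−0.62 ± 0.17), and the sialidase Neu4 was higher (0.42 ± 0.11, −0.0045 with housekeeping centring).

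Astrocyte genes differed between corpus callosum and cortex in both directions, at shares near or below those of all genes. Of 14 genes of white matter astrocytes 4 were higher in corpus callosum (28.6%) and 3 lower (21.4%), beside 21.7% and 21.4% of all genes. The median of this list, 0.12, became −0.30 with housekeeping centring. Gfap, the intermediate filament of fibrous astrocytes, had 0.14, −0.14 and 0.11 in corpus callosum against −1.60, −1.49, −0.12 and −1.25 in cortex (difference 1.15 ± 0.29, limma adjusted p = 0.00217). Cortical replicate 3, the library with the hippocampal markers, was the one that reached the callosal values. Against hippocampus Gfap had −0.58 (limma adjusted p = 0.232). The transcription regulator Id3 (0.83 ± 0.16) and the filament gene Vim (0.63 ± 0.20) were higher, the growth factor binding protein Igfbp2 was lower (−0.81 ± 0.32), and the water channel Aqp4 had −0.21 ± 0.16. Of 17 genes of grey matter astrocytes 2 were higher (11.8%) and 1 lower (5.88%), with a median of −0.10. The alarmin Il33, which oligodendrocytes also express, differed by 0.90 ± 0.16, while the synapse-promoting Chrdl1 was lower (−0.72 ± 0.24), with overlapping groups. The glutamate transporter Slc1a2 had −0.38 ± 0.19 and the gap junction gene Gja1 0.02 ± 0.11, and neither was called. With each of the 7 naive libraries left out in turn, Igfbp2 lost its call in 5 cases, Chrdl1 in 3 and Vim in 1 (0.46 without callosal replicate 1).

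Microglial genes gave more calls in the activation list than in the homeostatic one. Of 22 genes of disease-associated or white matter-associated microglia 10 were higher and 1 was lower in corpus callosum than in cortex, with a median of 0.31 that became −0.11 with housekeeping centring (5 higher and 5 lower). Tyrobp, the signalling adaptor of Trem2, had 0.73, 0.30 and 0.30 in corpus callosum against −0.57, −0.52, −0.51 and −0.54 in cortex (difference 0.98 ± 0.15, limma adjusted p = 6.49e-06). Cd63 and Lyz2 differed by 1.03 ± 0.13 and 0.99 ± 0.19, but 42.6% and 23.3% of the 40-base windows of their transcripts also occur at another locus, a property that went with higher callosal values over all genes. Cd9, which oligodendrocytes also express, differed by 0.99 ± 0.15. Lpl, the lipoprotein lipase, was lower (−0.75 ± 0.18). Spp1 ranged from −0.73 to 2.58 in cortex and was not called (−0.23 ± 0.51). Against hippocampus 1 of the 22 was higher and 2 were lower (median 0.09). Of 13 homeostatic genes 3 were higher, all by less than 0.36 log2 units: Selplg (0.35 ± 0.10), Siglech (0.27 ± 0.11) and Tmem119 (0.25 ± 0.10), and all 3 changed sign with housekeeping centring. With each of the 7 naive libraries left out in turn, Siglech lost its call in 5 cases (0.17 without callosal replicate 1), Tmem119 in 4 and Selplg in 1. P2ry12, the purinergic receptor of resting microglia, had 0.00 ± 0.14. The median of that list, 0.19, became −0.23 with housekeeping centring (0 higher and 5 lower), and limma called 0 of the 13 against hippocampus (1 was higher at an unadjusted p below 0.05).

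Vascular genes had calls in both directions. Of 13 endothelial genes 4 were lower and 1 higher (median −0.20), beside 21.4% and 21.7% of all genes: the cadherin Cdh5 (−0.60 ± 0.13), the VEGF receptor Flt1 (−0.59 ± 0.16) and Pecam1 (−0.50 ± 0.10) were lower, and Ly6c1, 46.7% of whose 40-base windows occur at another locus, was higher (0.55 ± 0.18). Of 16 mural and perivascular genes 3 were lower and 1 higher: the smooth muscle myosin Myh11 (−1.09 ± 0.33) and the pericyte genes Abcc9 (−0.65 ± 0.13) and Rgs5 (−0.64 ± 0.09) were lower. Ptgds was higher (1.09 ± 0.38), with 1.59 in callosal replicate 3 and −0.42 and −0.20 in the other callosal libraries. Against hippocampus 0 of the 13 endothelial genes were called by limma, and 0 had an unadjusted p below 0.05. With each of the 7 naive libraries left out in turn, Ptgds lost its call in 3 cases (0.45 without callosal replicate 3), Ly6c1 in 3 and Myh11 in 1 (without callosal replicate 1).

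Genes of cells that line the ventricle set the callosal libraries apart from each other. Of 15 ependymal and choroid plexus genes 5 were higher in corpus callosum than in cortex (33.3%, median 0.57), beside 21.7% of all genes. With housekeeping centring 1 was higher and 1 lower, and 1 was higher without callosal replicate 1. Against hippocampus limma called 0 of the 15 higher and 1 lower (median −0.14). At an unadjusted p below 0.05 the limma counts were 0 higher and 2 lower. Rarres2 had 1.16, 0.52 and −0.36 in corpus callosum against −1.0, −0.85, −0.67 and −1.12 in cortex (difference 1.35 ± 0.23, limma adjusted p = 3.59e-05). Ccdc153, a gene of motile cilia, had 1.73, 0.77 and −2.04 in corpus callosum against −1.95, −1.10, −0.65 and −1.13 in cortex (difference 1.36 ± 0.51, limma adjusted p = 0.0323). For Ccdc153 callosal replicates 1 and 2 were above every cortical library and replicate 3 below all of them, whereas the groups did not overlap for Rarres2. Foxj1, the master regulator of motile cilia, had 1.01, 0.42 and −0.75 in corpus callosum against −0.99 to −0.03 in cortex. Ttr, the main choroid plexus transcript, had 0.55 ± 1.11 and was not called. Of 13 genes of the ventricular zone and of neuroblasts 6 were higher (46.2%), with a median of 0.42 that became −0.0047 with housekeeping centring (0 higher and 4 lower). Without callosal replicate 1, 1 was higher and 1 lower. Against hippocampus 1 of the 13 was higher and 0 were lower (median 0.41). The proliferation gene Top2a had 1.82, 0.74 and −0.52 in corpus callosum against −0.04, −0.58, −0.44 and −0.22 in cortex (difference 1.00 ± 0.34). Mki67 differed by 0.96 ± 0.34 with the same order of callosal libraries, and Dcx, the doublecortin gene of migrating neuroblasts, had −0.09 ± 0.23. Without callosal replicate 1 the values of Ccdc153 (0.57), Foxj1 (0.44), Top2a (0.43) and Mki67 (0.40) were not called.

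**Figure D2:**
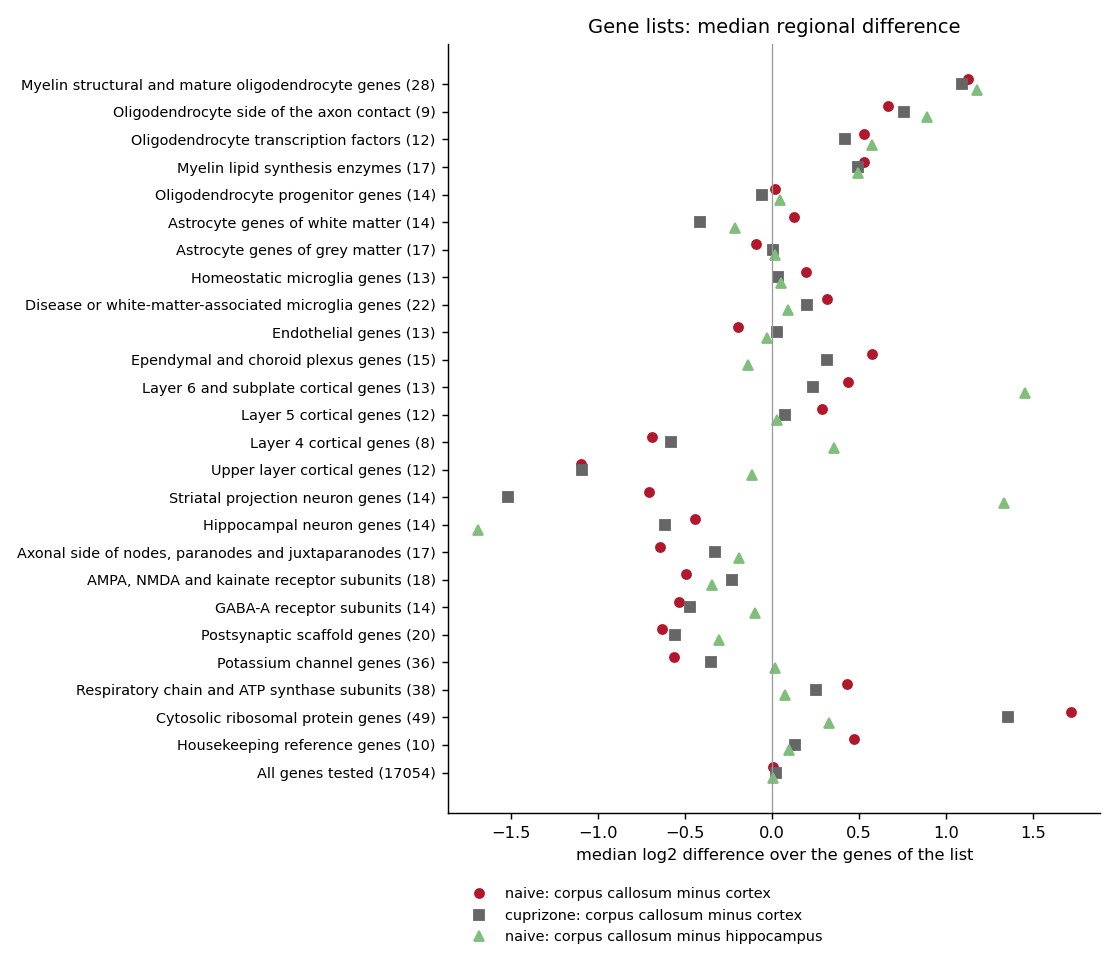
Median log2 difference (x axis) over the tested genes of each list (y axis, number of genes in brackets): red circles are naive corpus callosum minus naive cortex, grey squares the same difference in cuprizone mice and green triangles naive corpus callosum minus naive hippocampus. Myelin genes lie at 1.13, 1.09 and 1.17 in the 3 comparisons, whereas ribosomal protein genes lie at 1.72 and 1.35 against cortex and 0.33 against hippocampus.

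Neuronal genes differed by cortical layer. Upper layer genes were lower in corpus callosum than in cortex: 10 of 12 were lower and 0 were higher (median −1.10). Against hippocampus 3 of the 12 were higher and 3 lower (median −0.12). Otof, which encodes otoferlin, had −0.95, −0.31 and −1.21 in corpus callosum against 1.40, 0.38, 0.90 and 1.14 in cortex (difference −1.77 ± 0.32, limma adjusted p = 4.75e-05). Cux2, the homeobox factor of layers 2 to 4, had −0.93, 0.03 and 0.42 in corpus callosum against 1.24, 1.10, 0.75 and 1.42 in cortex (difference −1.29 ± 0.26, limma adjusted p = 0.000178). Rasgrf2 and Mdga1 differed by −1.46 ± 0.17 and −1.27 ± 0.31. The layer 4 factor Rorb had −0.09, −0.01 and −0.06 in corpus callosum against 0.92, 1.13, 0.21 and 1.56 in cortex (difference −1.01 ± 0.26), and with the channel Kcnh5 (−1.59 ± 0.35) and Thsd7a (−1.34 ± 0.27) it made up the 3 of 8 layer 4 genes that were lower. Against hippocampus 1 of the 8 was higher and 1 lower (median 0.35).

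Genes of layer 6 and of the subplate, the layer that borders the callosal white matter, ran the other way: 7 of 13 were higher in corpus callosum than in cortex and 0 were lower (median 0.44, 0.01 with housekeeping centring). Ctgf, a subplate marker that encodes a secreted matricellular protein, had 1.99, 1.38 and 1.28 in corpus callosum against −1.20, −0.36, −0.71 and −0.20 in cortex (difference 2.16 ± 0.23, limma adjusted p = 1.77e-08). Cplx3, a complexin of subplate neurons at chr9:57599992-57606281 on the minus strand, had 1.85, 1.35 and 1.42 in corpus callosum against −0.86, −0.18, −0.65 and 0.12 in cortex (difference 1.93 ± 0.29, limma adjusted p = 5.35e-06). The neurexin ligand Nxph3 differed by 1.39 ± 0.15 and Rprm by 1.31 ± 0.21. All 3 callosal libraries were above all 4 cortical ones for these 4 genes, replicate 3 included, although that library was the one low in striatal and ependymal genes. Foxp2 and Syt6, which mark the corticothalamic neurons of layer 6, were not called (−0.09 ± 0.37 and −0.08 ± 0.28). Against hippocampus, which lacks these layers, 10 of the 13 were higher (median 1.45), Foxp2 by 2.64 and Syt6 by 2.26 among them, and 11 were higher without hippocampal replicate 3.

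Layer 5 genes were divided. Of 12 genes 3 were higher and 4 lower, with a median of 0.29 that became −0.14 with housekeeping centring and ranged from −0.0068 to 0.42 as single libraries were left out. Against hippocampus 3 of the 12 were higher and 5 lower (median 0.03). Rbp4, the retinol binding protein of layer 5 neurons, differed by 0.82 ± 0.14, and Fezf2, the factor that specifies subcortical projection neurons, had 0.39, 0.58 and 0.34 in corpus callosum against −0.73, −0.07, 0.22 and −0.29 in cortex (difference 0.65 ± 0.17, limma adjusted p = 0.00274). Deptor (−0.88 ± 0.14), Parm1 (−0.82 ± 0.22) and Bcl11b, which encodes Ctip2 and is also a striatal factor (−0.65 ± 0.13), were lower. Over the plot of layer genes the share of called genes that were higher went with layer position: 0 in the upper layers and in layer 4, 3 of 7 in layer 5 and 7 of 7 in layer 6 and subplate.

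**Figure D3:**
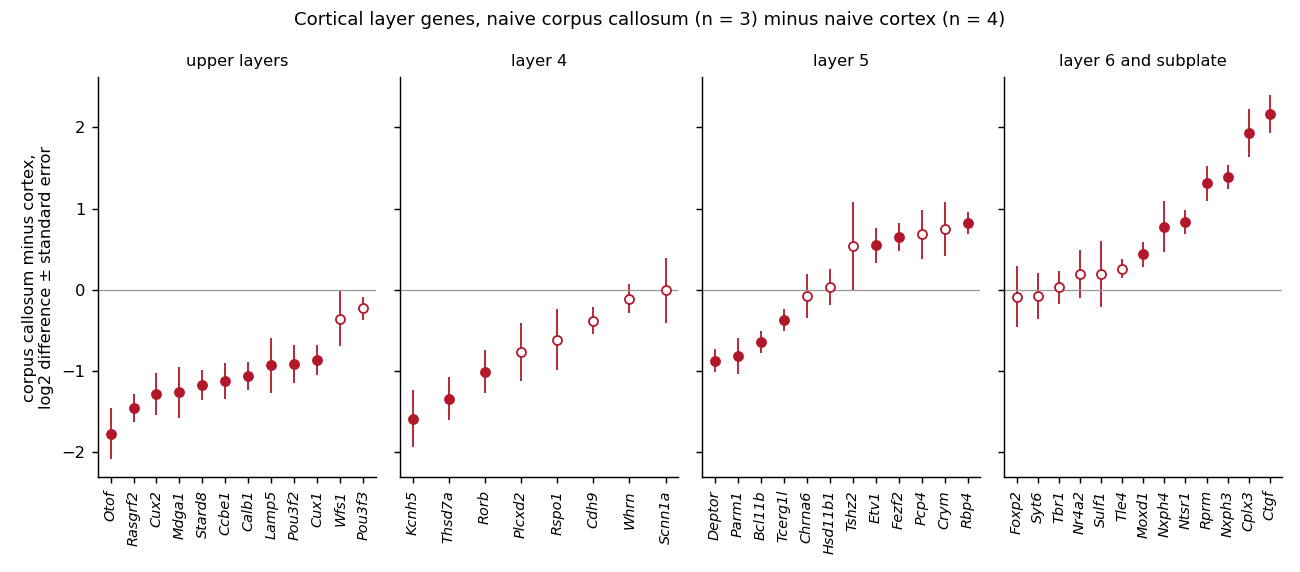
Log2 difference of naive corpus callosum (n = 3) minus naive cortex (n = 4), with the standard error (y axis), for the tested genes (x axis) of 4 cortical layer lists: filled points were called and open points were not. Upper layer genes lie below 0, from Otof at −1.77, and subplate genes reach 2.16 for Ctgf.

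Among other neuron lists, 14 striatal genes had a median of −0.71 with 3 lower (21.4%, beside 21.4% of all genes). These were the phosphodiesterase Pde10a (−1.27 ± 0.42), the factor Isl1 (−1.11 ± 0.39) and Adcy5. Pde10a had 0.34, 0.30 and −0.92 in corpus callosum against 1.67, 1.46, −0.14 and 1.72 in cortex, so replicate 3 was the low library of both regions. Drd2, the dopamine receptor of striatal indirect pathway neurons, had 1.27, 0.78 and −1.48 in corpus callosum against 2.48, 2.24, −0.61 and 2.14 in cortex and was not called (−1.37 ± 0.63, limma adjusted p = 0.0806). Without cortical replicate 3, 12 of the 14 were lower (median −1.33), and without callosal replicate 3, 0 were (median −0.19). Hippocampal neuron genes had the same share, 3 of 14 lower (median −0.45): Zbtb20, the granule cell factor Neurod1 (−1.01 ± 0.20) and Ociad2 (−0.46 ± 0.10). Against hippocampus 12 of the 14 were lower, with a median of −1.69, beside 8.84% of all genes. Of 7 septal genes 2 were lower (28.6%), the cholinergic pair Chat (−1.09 ± 0.32) and Slc18a3 (−1.07 ± 0.22), which lie in the same locus. With each of the 7 naive libraries left out in turn, Adcy5 lost its call in 5 cases (−0.43 without cortical replicate 1), Isl1 in 3 (−0.67 without callosal replicate 3), Pde10a in 3 (−0.86 without callosal replicate 3) and Chat in 1.

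Pan-neuronal genes did not move as a block: 4 of 22 were higher and 10 lower (median −0.23), and 5 were higher and 1 lower against hippocampus (median 0.02). The neurofilament gene Nefm had −1.0, −0.32 and −0.15 in corpus callosum against 0.47, 1.32, 1.22 and 1.09 in cortex (difference −1.52 ± 0.21, limma adjusted p = 1.39e-06). Nefh (−0.95 ± 0.27), Nefl (−0.68 ± 0.12) and Rbfox3, which encodes the neuronal nuclear antigen NeuN (−0.90 ± 0.10), were also lower. Stmn3, a microtubule regulator, was higher (0.55 ± 0.11), while the synaptic genes Snap25 (0.06 ± 0.14) and Syp (0.07 ± 0.09) were not called. Of 18 glutamatergic genes 10 were lower (median −0.48), led by Ptk2b (−0.94 ± 0.12), Bhlhe22 (−0.90 ± 0.22) and Camk2a (−0.75 ± 0.10). Tbr1, the factor of early-born deep layer neurons, had 0.03 ± 0.20. Of 18 GABAergic genes 2 were higher and 2 lower (median −0.12). Sst, the somatostatin gene, had 0.56, 0.35 and 0.64 in corpus callosum against −0.63, −0.39, −0.40 and −0.56 in cortex (difference 1.01 ± 0.13, limma adjusted p = 4.56e-07). Its relative Cort differed by 1.06 ± 0.15, yet the values against hippocampus were 0.03 and 0.01. Both transcripts are short, with 721 bases for Sst and 677 for Cort. Slc32a1, the vesicular GABA transporter, was lower (−0.60 ± 0.15), as was Gad2 (−0.53 ± 0.19), and Pvalb had 0.06 ± 0.29. Gad2 lost its call in 4 of 7 cases with a naive library left out (−0.29 without cortical replicate 1), and Nefh without callosal replicate 1 (−0.64).

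Most synaptic receptor and channel genes tested were lower in corpus callosum than in cortex. Of 18 AMPA, NMDA and kainate receptor subunits 14 were lower and 0 higher (median −0.50), of 14 GABA-A receptor subunits 9 (median −0.53), of 20 postsynaptic scaffold genes 17 (median −0.63), and of 36 potassium channel genes 24, with 1 higher (median −0.56). Gria2, the AMPA subunit that sets calcium permeability, had −0.72, −0.43 and −0.80 in corpus callosum against 0.28, 0.24, 0.05 and 0.37 in cortex (difference −0.89 ± 0.12, limma adjusted p = 1.06e-06). Gabrb1, a GABA-A receptor subunit, differed by −1.13 ± 0.14. Grin2b, an NMDA receptor subunit with a transcript of 24060 bases at chr6:135713233-136173511, had −1.54, −1.32 and −1.44 in corpus callosum against 2.34, 1.10, 1.06 and 2.46 in cortex (difference −3.18 ± 0.28, limma adjusted p = 3.45e-10). The female cortical libraries (2.34 and 2.46) lay above the male ones (1.10 and 1.06), and Grin2a (0.88 and 1.71 in females, −0.44 and −0.40 in males) and the channel Kcnh7 (1.40 and 2.33 in females, 0.35 and −0.12 in males) were ordered alike. List means had the same order: glutamate receptor subunits 0.42 and 0.41 in females against 0.05 and 0.19 in males, and GABA-A subunits 0.64 and 0.52 against 0.11 and 0.07. Scaffold genes had 0.33 and 0.41 against 0.19 and 0.13, and potassium channels 0.46 and 0.64 against 0.24 and 0.07. For ribosomal protein genes it was reversed (−1.15 and −1.19 against −0.85 and −0.95). The order was thus not particular to these genes, Kcnq3 or Tnr. The part of sex in this order was not tested. Against hippocampus Grin2b had −0.99 (limma adjusted p = 0.0188).

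Exceptions in these families were few. Doc2a, a calcium sensor of vesicle release, was higher (0.65 ± 0.12) where 11 of 26 vesicle genes were lower, led by Sv2c (−2.06 ± 0.36) and the fast calcium sensor Syt2 (−1.67 ± 0.28). The receptor Grm8 (0.36 ± 0.12) and the calcium-activated channel Kcnn1 (0.19 ± 0.08) were also higher, but not with housekeeping centring, which turned both below 0, and they lost their call in 3 and 5 of the 7 cases with a naive library left out. Transcript length went with the regional difference over all genes, as described further on. With the length and GC correction 8 of 18 glutamate receptor subunits were lower and 1 was higher (median −0.25), 6 of 14 GABA-A subunits were lower (median −0.37), 13 of 20 scaffold genes (median −0.39) and 16 of 36 potassium channels (median −0.25). Against hippocampus the counts of lower genes were 7 of 18, 3 of 14, 10 of 20 and 10 of 36.

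Other signalling lists gave smaller counts. Of 18 neuropeptide genes 4 were higher and 1 was lower, with a median of 0.10 that became −0.33 with housekeeping centring (2 higher and 6 lower). Besides Sst and Cort, the nociceptin precursor Pnoc (0.71 ± 0.12) and the corticotropin-releasing hormone binding protein Crhbp (0.55 ± 0.15) were higher and Cartpt was lower (−0.69 ± 0.29), whereas Pnoc had −0.19 against hippocampus and Crhbp was lower there (−0.49). Penk, which striatal neurons express strongly, was not called. Of 18 immediate early genes Npas4 was higher (0.64 ± 0.24) and Homer1 was lower (−0.84 ± 0.20), with a median of 0.10 that became −0.32 with housekeeping centring, and Fos had 0.36 ± 0.36. Of 7 metabotropic glutamate receptors 3 were lower, among them Grm5 (−0.73 ± 0.18) and Grm7 (−0.37 ± 0.12). Of 10 chloride transporters and sodium pump subunits 4 were lower and 2 higher, Atp1b3 (0.38 ± 0.09, −0.042 with housekeeping centring) among the higher ones and Atp1b2 (−0.60 ± 0.11) among the lower ones. Of 6 blood genes 1 could be tested, the erythroid haem enzyme Alas2, with 0.38 ± 0.19. With each of the 7 naive libraries left out in turn, Cartpt lost its call in 4 cases (−0.40 without cortical replicate 1), Npas4 in 4 (0.39 without cortical replicate 3), Grm7 in 2 (−0.23 without callosal replicate 1) and Crhbp in 1 (0.40 without callosal replicate 3).

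Extracellular matrix genes were called at shares near or below the 43.1% of all genes. Of 14 lecticans, link proteins and perineuronal net genes 5 were lower and 1 higher (median −0.29): neurocan (Ncan) differed by −0.65 ± 0.12, and Hapln2, the link protein of nodes of Ranvier, by 1.06 ± 0.21. Of 23 collagen chains 6 were lower (median −0.18), led by Col11a1, with −1.49, −1.76 and −1.22 in corpus callosum against 0.19, 0.51, 1.18 and −0.15 in cortex (difference −1.93 ± 0.23). Of 22 cholesterol genes 6 were higher and 1 lower, with a median of 0.12 that became −0.31 with housekeeping centring (3 higher and 10 lower). Idi1 (1.54 ± 0.17) and Fdps (1.18 ± 0.13) led it, and 21.9% and 60.1% of their 40-base windows occur at another locus.

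Paralogues of which one member is typical of glia and another of neurons were set side by side, 35 genes in all, of which 13 were higher and 6 lower, with a median of 0.11 that became −0.31 with housekeeping centring (4 higher and 20 lower). The membrane glycoproteins Gpm6a (0.04) and Gpm6b (0.14) were not called, and the neuronal connexin Gjd2 had −0.11. Gpr37 (0.81) was higher where the astrocytic Gpr37l1 had 0.11, and the deacetylase of myelin Sirt2 (0.55) where Sirt1 had −0.06. Glial Cadm4 was higher (0.53) and its axonal partner Cadm3 lower (−0.69), and unconventional myosin Myo1d was higher (0.53) with neuronal Myo5a at −0.38 and not called. The sodium potassium chloride importer Slc12a2 was higher (0.37, −0.058 with housekeeping centring) and the neuronal chloride exporter Slc12a5 lower (−0.48). Without callosal replicate 1, Myo1d (0.32), Slc12a2 (0.21) and Slc12a5 (−0.31) were not called.

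Other pairs gave a mixed order. Among contact proteins, Cntn1 (−0.32) and Nrcam (−0.55) were lower, and Cntn2 and Nfasc were not called, as given above. The band 4.1 proteins Epb41l1 (−0.24, lower) and Epb41l3 (−0.08) and the SNARE genes Snap23 (0.02) and Snap25 (0.06) differed little. Of the tubulins, Tubb4a of oligodendrocytes (0.31) and neuronal Tubb3 (0.40) were both higher, and both had a value below 0 with housekeeping centring. Dpysl5 was higher (0.49) and Dpysl2 had −0.21. Stmn1 was higher by 2.73 and Stmn2 had 0.15. Among glycolytic enzymes Eno1 was higher by 2.31 and the neuronal enolase Eno2 had −0.13, while Aldoa was higher (0.45) and the astrocytic Aldoc had 0.12. Of the transcripts of Stmn1 and Eno1, 36.7% and 74.8% of 40-base windows occur at another locus. Against hippocampus Stmn1 was higher by 1.46 and Eno1 had −0.17. Without callosal replicate 1, Tubb4a (0.20), Dpysl5 (0.34), Cntn1 (−0.26) and Epb41l1 (−0.17) were not called, nor was Tubb3 without callosal replicate 3 (0.29).

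Most of the largest positive differences were in genes with near-identical copies. Among the 15 named genes with the largest positive difference and groups that did not overlap were Rpl17 (4.53), Rpl21 (4.34), Gapdh (3.92), Chn1os3 (3.45), Atp6v0c (3.42), Rpl41 (3.33), Rpl29 (3.27), Rps23 (3.23), Sumo2 (3.22), Ppia (3.09), Rpl7a (2.98), Rpsa (2.91), Atp5l (2.88) and H3f3a (2.87). Of these Chn1os3 has no 40-base window at another locus, and the others named have at least 19.7%, the share of H3f3a. Against hippocampus none of the 15 differed by more than 0.44, the value of Rps23. Gapdh, the glycolytic enzyme often used as a loading reference, had 0.83, 0.99 and 0.93 in corpus callosum against −3.09, −2.96, −2.76 and −3.21 in cortex (difference 3.92 ± 0.15, limma adjusted p = 4.88e-18), and −0.01 against hippocampus (limma adjusted p = 0.986). Of its transcript 83.3% of 40-base windows occur at another annotated locus.

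A stretch of Gapdh is shown because, of 44 coding stretches of 40 bases searched, it occurs in the largest number of other genes. It lies at chr6:125162901-125162940 on the minus strand (GRCm38, GENCODE M21 transcript), and the same 40 bases are in 97 other annotated genes, 94 of them pseudogenes, on 21 chromosomes.
Gapdh: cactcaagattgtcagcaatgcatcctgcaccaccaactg
A read of 40 bases from such a stretch has no unique place in the genome. Reads from genes of this kind can be split or discarded by the aligner and the counter, so their values are uncertain. The methods give default settings for the aligner, and how such reads were counted is not given in the sources used here.

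Over all genes, the share of large callosal differences was higher where more than 5% of windows were shared with another locus. Among 10912 genes with no 40-base window at another locus, 1.95% were higher in corpus callosum than in cortex by at least 1 log2 unit. The share was 1.32% of 3873 genes with up to 5% of windows shared, 6.60% of 1076 genes with over 5 to 25% of windows shared, 22.9% of 406 genes with over 25 to 50%, 39.4% of 160 genes with over 50 to 75% and 41.3% of 104 genes with more. Against hippocampus, which by the methods has the read length of the corpus callosum, it was at most 1.65% in every class. Of 49 ribosomal protein genes, 47 of which have at least 5% of windows shared, 49 were higher than in cortex (median 1.72) and 10 higher than in hippocampus (median 0.33). Of 38 respiratory chain and ATP synthase subunits 26 were higher than in cortex (median 0.43; 11 higher and 13 lower with housekeeping centring, median 0.0017, and 13 higher and 2 lower with the length and GC correction, median 0.11), led by Atp5g1 (2.18 ± 0.14) and Cox7c (2.17 ± 0.14), and limma called 0 against hippocampus (median 0.07; 2 were higher at an unadjusted p below 0.05). The part of read length in these differences was not tested.

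**Figure D4:**
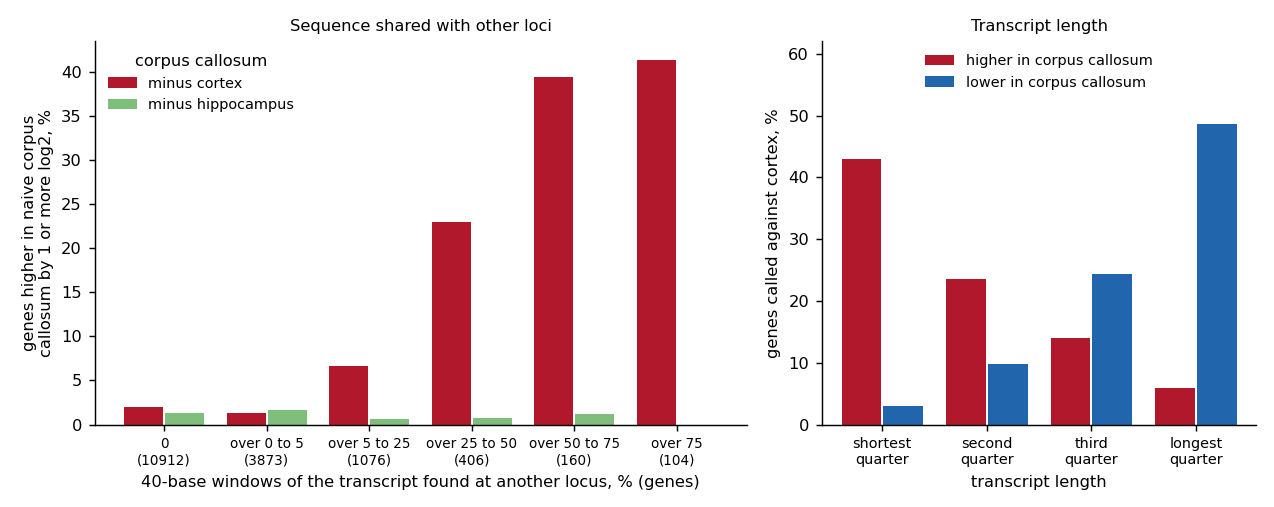
Left, percent of genes higher by at least 1 log2 unit in naive corpus callosum (y axis) by the share of 40-base transcript windows that occur at another locus (x axis, number of genes in brackets), against cortex (red) and hippocampus (green): the red bars reach 41.3% and the green bars stay at or below 1.65%. Right, percent of genes called higher (red) and lower (blue) in naive corpus callosum than in naive cortex by quartile of transcript length: the shortest quartile has 43.0% higher and 3.00% lower, the longest 5.95% higher and 48.7% lower.

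Among lower genes the largest difference was that of Aldoart1, a retrogene of the aldolase gene Aldoa that is known from testis and lies at chr4:72850583-72852634 on the minus strand. It had −0.97, −0.86 and −0.99 in corpus callosum against 2.90, 3.05, 3.08 and 2.86 in cortex (difference −3.91 ± 0.12, limma adjusted p = 1.76e-20), and −0.16 against hippocampus. Its coding sequence is 86.8% identical to that of Aldoa over 1254 aligned bases. The 60-base stretches shown, with the 8 bases that differ in capitals, lie at chr4:72852366-72852425 (Aldoart1) and chr7:126797717-126797776 (Aldoa), both on the minus strand.
Aldoart1: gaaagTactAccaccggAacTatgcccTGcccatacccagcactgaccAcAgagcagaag
Aldoa: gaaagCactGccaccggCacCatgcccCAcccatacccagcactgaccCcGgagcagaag
Of the 40-base windows of Aldoart1, 10.8% occur at another locus. Aldoa itself was higher in corpus callosum (0.00, 0.16 and 0.17 against −0.50, −0.28, −0.17 and −0.41 in cortex).

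The other 14 named genes with the largest negative differences were Grin2b, the nuclear RNAs Kcnq1ot1 (−2.96) and Malat1 (−2.48), Sv2c, the transcription factor Zbtb20 (−2.04), Col11a1, Tmem215 (−1.89), Otof, the choline transporter Slc5a7 (−1.71), Arfgef3 (−1.69), Syt2, Kcnh7, Ankrd12 (−1.64) and Fstl4 (−1.61). Kcnq1ot1 had −0.78, −1.19 and −1.23 in corpus callosum against 1.83, 2.23, 2.20 and 1.34 in cortex and −0.26 as a difference against hippocampus. Malat1 had −1.15, −1.42 and −1.29 in corpus callosum against 1.35, 1.61, 1.41 and 0.41 in cortex. Neat1, the scaffold of paraspeckles, was higher (0.97 ± 0.27) and was also higher than in hippocampus (1.15), but not called against cortex without callosal replicate 1 (0.75). Of 8 nuclear-retained RNAs 4 were lower and 2 higher (median −0.45).

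Transcript length and strand went with the difference too. Across 16531 genes Spearman's rho of the difference with length was −0.528 against cortex and −0.152 against hippocampus, and naive hippocampus minus naive cortex gave −0.438, in a description across genes, which are not independent replicates. Of 181 genes with over 50% of their exon bases under an exon of the opposite strand, 52.5% were higher in corpus callosum than in cortex, beside 19.1% of genes with none. Chn1os3, an RNA antisense to Chn1, had 0.67, 0.80 and 0.79 in corpus callosum against −2.74, −2.71, −2.41 and −2.91 in cortex, with −0.04 as a difference against hippocampus. Tsix, antisense to Xist and chosen after its values were seen, had 1.55 and 1.15 in the female callosal libraries but −1.01 and −1.05 in the female cortical ones, beside Xist values of 3.17 and 2.78 in these callosal and 3.12 and 3.18 in these cortical libraries. Without strand-specific counting, reads of a gene and of its antisense partner cannot be told apart. The labels and the methods name different library kits, of which the label's is stranded.

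The housekeeping genes were given one by one because they set a scaling. Of these 10 genes 4 have at least 5% of their 40-base windows at another locus, a property that went with higher callosal values over all genes. Vcp was higher by 1.20 ± 0.07 (62.4% of its windows occur at another locus), Chmp2a by 0.62, Snrpd3 by 0.53, Psmb2 by 0.52, Psmb4 by 0.48, Rab7 by 0.45, Gpi1 by 0.27 and Emc7 by 0.26, of which Gpi1 and Emc7 had a value below 0 when the libraries were centred on these genes. Emc7 lost its call in 2 of the 7 cases with a naive library left out. Vps29 (−0.02) and Reep5 (−0.07) were not called. With these genes as the reference 1023 genes were higher and 11019 lower in corpus callosum than in cortex, in place of 3707 and 3643, and 23 of the 28 myelin genes were higher and 2 lower (median 0.70).

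The regional difference was then read in mice that had been fed cuprizone, whose libraries are not part of the naive difference but share the fitted spread. In cuprizone mice 5464 genes were higher in corpus callosum than in cortex (32%) and 4913 lower (28.8%), 60.8% in all. By at least 1 log2 unit 2.83% and 1.41% of all genes differed, beside 3.23% and 1.22% in naive mice. The cuprizone difference rests on 9 callosal and 11 cortical libraries and the naive one on 3 and 4. Counts of called genes in naive and cuprizone mice therefore do not compare the size of the differences. The cuprizone difference also takes together libraries from the end of the diet and from all recovery times. Whether the regional difference of the myelin genes changed at the end of the diet alone was not tested. Of the 28 myelin genes 24 were higher in naive and 27 in cuprizone mice, with medians of 1.13 and 1.09, and limma called 0 of the 28 for a regional difference that differed between naive and cuprizone mice, beside 8.37% of all genes (2.98% with a higher and 5.38% with a lower naive difference, 0.17% and 0.264% by at least 1 log2 unit). At an unadjusted p below 0.05 the count by limma was 1 of the 28. Over all genes the test of the difference called 509 higher and 918 lower, 256 and 550 without callosal replicate 3, and 994 higher without replicate 3 of the cuprizone cortex at 8 weeks of recovery. Mobp differed between the regions by 1.85 in naive and 1.47 in cuprizone mice, and Mog by 1.59 and 1.51. The labels give no age for the cuprizone mice, which by the methods started the diet as young adults and were taken after different times, so those with shorter recovery were younger than the naive mice, and the part of age in these differences was not tested.

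Several neuronal and matrix genes were among those whose regional difference differed. Grin2b differed by −3.18 in naive and −1.16 in cuprizone mice (difference of differences −2.02, limma adjusted p = 0.000566), and Malat1 by −2.48 and −0.44 (−2.04, limma adjusted p = 0.0001). Col24a1, a fibrillar collagen, differed by −1.17 in naive and 0.43 in cuprizone mice (−1.60, limma adjusted p = 0.00327), and Col11a1 by −1.93 and −0.64. Of 23 collagen chains 11 had a regional difference that differed, 10 of them with a lower naive one, among them the basement membrane chains Col4a1 (−0.71 in naive and 0.05 in cuprizone mice) and Col4a2 (−0.86 and 0.18). In cuprizone mice 12 collagen chains were higher and 6 lower in corpus callosum than in cortex (median 0.39). Ctgf differed by 2.16 in naive and 1.26 in cuprizone mice (0.90, limma adjusted p = 0.0366), Tnr by −1.15 and 0.21 and Zfp536 by −1.05 and −0.20. Of 13 layer 6 and subplate genes 4 had a higher naive difference, among them the neurotensin receptor Ntsr1 (0.83 in naive and 0.26 in cuprizone mice). Of the 17 axonal genes 4 had a lower naive difference, among them Scn8a (−0.99 and −0.47), the juxtaparanodal channel Kcna1 (−0.73 and −0.17) and the paranodal Cntnap1 (−0.61 and −0.13). Of 13 ventricular zone and neuroblast genes 4 had a higher naive difference, Sox11 with −0.23 in naive and −1.49 in cuprizone mice among them. Striatal genes had 3 of 14 lower in naive and 14 of 14 lower in cuprizone mice (medians −0.71 and −1.52), beside 21.4% and 28.8% of all genes. In the limma test of the difference 0 of the 14 passed (3 had a higher naive difference at an unadjusted p below 0.05).

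**Figure D5:**
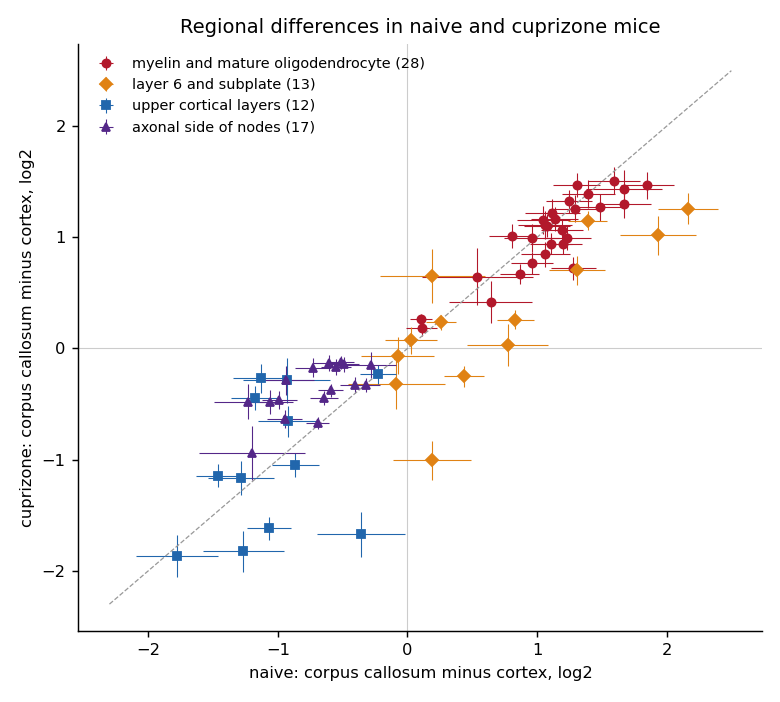
Log2 difference of corpus callosum minus cortex in naive (x axis) and in cuprizone mice (y axis), with standard errors, for myelin genes (red circles), layer 6 and subplate genes (orange diamonds), upper layer genes (blue squares) and axonal genes of the node (purple triangles), and a dashed line of equal values. Myelin genes lie along the line up to 1.85 for Mobp, and the axonal genes have medians of −0.64 in naive and −0.33 in cuprizone mice.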

How the data were processed

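Total RNA of microdissected regions was read by poly(A) RNA-seq. Per the labels, the study's methods and the files, the authors aligned reads with TopHat2 (2.0.13) to mm10 (GRCm38) and deposited log2-like DESeq2 values per gene, centred per gene. Ties at the lowest value of each gene were identical between the callosal, cortical and hippocampal tables (3546 of 3546 genes for callosum and cortex), so one centre is shared and the 3 tables were joined by symbol. The aligner ran at default settings, and the counting of reads with several matches is not given in the sources used here. In naive cortex 94.4 to 98.8% of low values fell within 0.1 of whole reads, and relative depth was 0.931 to 1.0. Callosal and hippocampal values carry more decimals, as a mean of runs would, which was not settled. Low genes have understated differences.

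Of 21034 joined genes, 17054 were tested after removing those at their lowest value in more than 10 of 40 chronic libraries. limma (3.58.1, R 4.3.3) was fitted to the 40 libraries with 1 mean per region and treatment group, without a covariate, and p-values were adjusted by Benjamini and Hochberg over all genes; errors are standard errors unless called SD. On simulated data with 200 changed genes, recovery is given in the closing section. Copies were counted as 40-base transcript windows present at another annotated locus of GENCODE M21 (20336 of 21034 symbols matched); promoters came from RefSeq (GRCm38.p6). The text names the 15 largest called differences with groups that did not overlap in each direction (predicted genes left out), up to 4 called and 2 other members per list, paralogues, sex-linked and housekeeping genes, of which some are not reported here; Enpp2, Cldn14, Tsix, Grin2a and further list members were chosen after their values were seen. Members and lists were chosen with earlier results of these data known. Alternatives were other scalings, filters, covariates, a length and GC correction, single libraries left out and, chosen after seeing the data, a filter on copied genes.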

Additional observations from a re-analysis of the deposited data

Results flagged for a closer look

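Among the 4 naive cortical libraries, 14 of 211 named genes that could be checked and 3 of 43 lists had 1 library far from the other 3, which chance gives in about 1 of 20 groups. Cortical replicate 3 was the far library for Agpat4 (−0.14), Drd2 (−0.61), Pde10a (−0.14), Penk (−0.44), Scn4b (0.50), Spp1 (2.58) and Syt6 (0.0085), and for the means over the striatal list (−0.59) and the myelin lipid enzymes (−0.10). Replicate 1 was far for Crhbp (−0.72), Slc18a3 (1.39) and Syp (−0.16). Replicate 2 was far for Aqp4 (−0.41), Flt1 (−0.17), Kcnn1 (0.12) and Vps29 (0.14). Replicate 4 was far for the mean over the layer 5 genes (−0.012).

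The regional difference of 37 of the 215 named genes differed between naive and cuprizone mice by the limma test of the difference, 13 with a higher and 24 with a lower naive value. The lower ones, as naive minus cuprizone difference, were Abcc9 (−0.60), Ankrd12 (−0.46), Arfgef3 (−1.21), Cntn2 (−0.56), Cntnap1 (−0.48), Col11a1 (−1.29), Col24a1 (−1.60), Col4a1 (−0.76), Col4a2 (−1.04), Gabrb1 (−0.66), Gria2 (−0.58), Grin2b (−2.02), Kcna1 (−0.56), Kcnh7 (−1.41), Malat1 (−2.04), Nefl (−0.48), Nefm (−0.79), Nfasc (−0.46), Pecam1 (−0.41), Rgs5 (−0.48), Scn8a (−0.52), Syt2 (−1.38), Tnr (−1.36) and Zfp536 (−0.85). The higher ones were Bcl11b (0.51), Ctgf (0.90), Dpysl2 (0.81), H3f3a (0.55), Id3 (0.68), Ntsr1 (0.57), Pnoc (0.49), Psmb2 (0.37), Psmb4 (0.43), Rpl21 (0.48), Snrpd3 (0.42), Sox11 (1.26) and Sst (0.63).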

How the results depend on the processing

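The naive differences of corpus callosum against cortex kept the counts of higher and lower genes within 1.5 times under the filters on low values, median centring, quantile normalization, robust empirical Bayes, library weights and sex as a covariate. With libraries centred on housekeeping genes 1023 genes were higher and 11019 lower (256 and 1136 by at least 1 log2 unit). With the length and GC correction 115 were lower by at least 1. With the 7 naive libraries only 1940 were lower, and 38 named genes lost their call. With genes under 5% of copied 40-base windows, a filter chosen after seeing the data, 264 were higher by at least 1, and 247 in cuprizone mice. Leaving out each naive library gave 2891 to 3808 genes higher and 2808 to 3811 lower. Replicate numbers are shared by both regions, but replicate 2 is a female in corpus callosum and a male in cortex, so those libraries are not from the same mouse. Deviations of same-numbered libraries correlated at 0.0775, 0.0790 and 0.268, and callosal replicate 2 correlated best with cortical replicate 1 (0.229). The numbers were therefore not taken as pairs, and a replicate block joins different mice at replicate 2. With the replicate block in the 7 naive libraries 1575 genes were higher and 914 lower, and Foxp2 had 0.074, Snap23 −0.066 and Syt6 0.023. Under that block 54 named genes lost their call.

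In cuprizone mice, housekeeping centring gave 2400 genes higher and 8979 lower (309 and 431 by at least 1). For the difference between naive and cuprizone mice it gave 85 higher and 3202 lower (13 and 140 by at least 1), quantile normalization 1260 and 1523 (89 lower by at least 1), the callosal and cortical libraries alone 113 and 322 (12 and 29 by at least 1), and the length and GC correction 28 lower by at least 1. Leaving out single libraries gave 256 to 994 higher, 550 to 1306 lower and 17 to 50 higher by at least 1. Against hippocampus, quantile normalization gave 360 higher by at least 1, housekeeping centring 899 higher, library weights 2546 higher and 2502 lower, and leaving out single libraries 966 to 1564 higher and 146 to 341 higher by at least 1. The causes of these shifts were not tested.

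Emc7, Gpi1 and Kcnn1, called higher in the main test, were called lower with housekeeping centring (limma adjusted p = 0.0065, 0.029 and 0.0093). Syp and Aldoc, not called in the main test, were among other genes called lower there. Nfasc, also not called, was called higher with the length and GC correction (limma adjusted p = 0.0023). Differences of corpus callosum minus cortex that changed sign are listed by setting. With housekeeping centring they were Alas2 −0.045, Aldoc −0.30, Atp1b3 −0.042, Cldn14 −0.32, Cntn2 −0.16, Emc7 −0.17, Fos −0.068, Gja1 −0.40, Gpi1 −0.15, Gpm6a −0.39, Gpm6b −0.28, Gpr17 −0.24, Gpr37l1 −0.31, Grm8 −0.066, Kcnn1 −0.23, Neu4 −0.0045, P2ry12 −0.42, Pdgfra −0.36, Pvalb −0.36, Selplg −0.072, Siglech −0.15, Slc12a2 −0.058, Snap23 −0.40, Snap25 −0.36, Stmn2 −0.28, Syp −0.35, Tbr1 −0.40, Tmem119 −0.17, Tppp −0.32, Tubb3 −0.026 and Tubb4a −0.12. The list medians that changed sign under it were those of newly formed oligodendrocytes (−0.40), progenitors (−0.41), white matter astrocytes (−0.30), homeostatic (−0.23) and disease-associated microglia (−0.11), the ventricular zone (−0.0047), layer 5 (−0.14), immediate early genes (−0.32), neuropeptides (−0.33), cholesterol (−0.31), blood (−0.045) and paralogues (−0.31). With the length and GC correction they were Cldn14 −0.14, Cspg4 0.26, Dcx 0.33, Epb41l1 0.0021, Epb41l3 0.019, Foxp2 0.24, Gpr37l1 −0.036, Myo5a 0.13, Nfasc 0.36, P2ry12 −0.083, Pvalb −0.29, Sirt1 0.097, Slc1a2 0.13, Snap23 −0.014, Snap25 −0.038, Sox11 0.16, Syp −0.041, Syt6 0.054 and the medians of neuropeptides (−0.25), lecticans (0.00052), collagens (0.090) and grey matter astrocytes (0.044). Median centring gave P2ry12 −0.0083. Quantile normalization gave Foxp2 0.11, Gja1 −0.0041, Snap23 −0.049, Syt6 0.072 and Ttr −0.40. Library weights gave Gja1 −0.097, P2ry12 −0.080, Pdgfra −0.010, Snap23 −0.043 and Vps29 0.0046.

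As single libraries were left out, the ranges that crossed 0 were Cspg4 −0.24 to 0.021, Dcx −0.30 to 0.13, Foxp2 −0.50 to 0.15, Gja1 −0.074 to 0.13, Gjd2 −0.25 to 0.031, Gpm6a −0.049 to 0.12, Nfasc −0.16 to 0.046, P2ry12 −0.13 to 0.11, Pdgfra −0.027 to 0.16, Penk −1.65 to 0.072, Pvalb −0.18 to 0.24, Snap23 −0.079 to 0.12, Snap25 −0.035 to 0.19, Spp1 −0.73 to 0.56, Syp −0.030 to 0.15, Syt6 −0.37 to 0.29, Tbr1 −0.18 to 0.19, Ttr −0.080 to 0.91, Vps29 −0.034 to 0.023, Xist −0.44 to 3.89 and the medians of layer 5 (−0.0068 to 0.42), white matter astrocytes (−0.076 to 0.25), collagens (−0.28 to 0.0032), GABAergic genes (−0.20 to 0.0052), immediate early genes (−0.17 to 0.28), newly formed oligodendrocytes (−0.056 to 0.10) and progenitors (−0.10 to 0.11). Of 168 named genes that were called, 37 lost their call in at least 1 of these cases. On simulated data the naive comparison recovered 52.2% of changes of 0.5, 97% of changes of 1 and 98.5% of changes of 2 log2 units among 200 changed genes of 17054. The simulated spread of a gene was the same in all groups, and the real comparison called 43.1% of genes. These rates therefore describe the simulated setting only. The values hold no read totals, so no limit from counting is given.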

Other observations

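Genes seen in one naive region only were mostly removed by the filter on low values. That filter drops genes at their lowest value in more than 10 of 40 chronic libraries. A gene absent from all chronic callosal or all chronic cortical libraries therefore cannot pass it, so the counts that passed were limited by design. Of the 21034 joined genes, 303 were above their lowest value in all 3 callosal naive libraries and at it in all 4 cortical ones, and 13 of these passed the filter of the test. In the other direction there were 2 such genes and 0 passed. The commonest low value lay 0.113 to 0.124 above the lowest in naive callosal libraries and 0.328 to 0.34 above it in naive cortical ones. Detection of low genes was therefore not alike in the regions.

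Of 267 genes annotated as antisense 115 were higher and 10 lower in naive corpus callosum than in naive cortex (median 0.24), and against hippocampus the median was 0.026. Of 98 genes with symbols for opposite-strand transcripts 43 were higher and 5 lower.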
